A study of Mus musculus with 4 samples.

Results

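The complementarity determining region 3 (CDR3) of a TCRβ chain was called short when it held 11 or fewer amino acids, counted from its first cysteine to its last phenylalanine. In all, 19678 of 364420 in-frame TCRβ clones of 4 splenic CD4 libraries were short, out of 382531 deposited TCRβ clones. The libraries came from 2 WT mice, which were C57BL/6 controls, and from 2 Tet2/3 DKO mice (Tet2-/- Tet3 flx/flx CD4Cre), with an average age of 25 days. In the DKO mice Tet2 was deleted in every cell, while Tet3 was deleted by a Cre driven by CD4 regulatory sequences, which is active from the double positive stage of the thymus. Live CD4+ CD25- TCRβ+ cells that did not bind the aGalCer-loaded CD1d tetramer were sorted from spleen, so regulatory T cells with CD25 and iNKT cells were largely left out, and the sorted RNA was made into 5' RACE TCR libraries. The files list TCR chains alone, so the sorted cell type could not be checked against other marker genes. WT 1, WT 2, Tet2/3 DKO 1 and Tet2/3 DKO 2 held 4011, 5086, 4847 and 5734 short clones with 18798, 24456, 21235 and 36457 reads. The in-frame TCRβ reads of the same libraries were 352203, 438257, 395406 and 552002.

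The TCRβ CDR3 is the loop that lies over the peptide in most TCR contacts with peptide and MHC. It is made when a V, a D and a J segment are joined. RAG cuts the segments, nucleases trim their ends, and the enzyme TdT adds bases that no segment encodes. A CDR3 is thus short when segments bring few bases, when their ends are trimmed far, or when few bases are added. TET2 and TET3 are dioxygenases that oxidize 5-methylcytosine in DNA.

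The J segments differed in the number of bases they brought. The ends shown here are those of the pair that rose and the pair that fell furthest in short CDR3s. Each line below gives the CDR3 part of a J segment as read from distinct chains with no trimming of J, in lower case and 5′ to 3′, and the bases are those found most often.
TRBJ2-7: ctcctatgaacagtacttc
TRBJ1-1: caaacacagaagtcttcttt
TRBJ2-2: caaacaccgggcagctctacttt
TRBJ1-6: ttcctataattcgcccctctacttt
TRBJ2-7 (chr6:41543810-41543856, GRCm38.p6, mm10) brought 19 bases and was the J segment with the shortest stretch. TRBJ1-1 (chr6:41533864-41533911) and TRBJ1-2 brought 20 bases, TRBJ2-3, TRBJ2-4 and TRBJ2-5 brought 21, and TRBJ1-3, TRBJ1-5 and TRBJ2-1 brought 22. TRBJ1-4 and TRBJ2-2 (chr6:41542957-41543007) brought 23 bases, and TRBJ1-6 (chr6:41535554-41535606) brought 25. The coordinates are those of the whole J segment on chromosome 6 in the RefSeq table.

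The V ends differed as well, and 3 are shown, TRBV30 and TRBV5 because they rose and fell far in short CDR3s and TRBV31 because it brings the fewest bases.
TRBV31: tgtgcctggagtc
TRBV30: tgtagttctagaga
TRBV5: tgtgccagcagccaaga
TRBV31 (chr6:41557693-41558371), the only V segment that lies downstream of the J segments and joins by inversion, brought 13 bases. TRBV30 (chr6:41281376-41281990) and TRBV20 (chr6:41188273-41188977) brought 14 bases, while TRBV5 (chr6:41062359-41062803) brought 17.

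The short chains that the results turn on follow, as the CDR3 nucleotide sequence with most reads. Capitals mark bases that the clone tables assign to no V, D or J segment. An assigned stretch can hold a mismatch or run past the end of its segment, as that of V does by 7 bases in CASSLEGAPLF.
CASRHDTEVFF, TRBV15 and TRBJ1-1: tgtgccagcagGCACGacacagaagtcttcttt
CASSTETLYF, TRBV15 and TRBJ2-3: tgtgccagcagCAcagaaacgctgtatttt
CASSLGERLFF, TRBV15 and TRBJ1-4: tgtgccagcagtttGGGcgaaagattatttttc
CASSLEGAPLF, TRBV12-2 and TRBJ1-5: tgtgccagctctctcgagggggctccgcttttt
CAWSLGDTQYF, TRBV31 and TRBJ2-5: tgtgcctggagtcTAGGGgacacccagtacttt
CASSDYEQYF, TRBV13-1 and TRBJ2-7: tgtgccagcagtgactatgaacagtacttc
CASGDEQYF, TRBV13-2 and TRBJ2-7: tgtgccagcggtgatgaacagtacttc
The first 4 were the most abundant short chains of Tet2/3 DKO 2, WT 1, WT 2 and Tet2/3 DKO 1. The last 3 were found in all 4 libraries. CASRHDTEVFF carried 5 bases assigned to no segment, while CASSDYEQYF and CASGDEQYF carried none and no D segment was called in them.

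To describe how short these CDR3s were, clones were counted by length. Of all short clones, 80.4% had 11 amino acids (15816), 14.7% had 10 (2887) and 2.85% had 9 (560). The remaining 234, 109, 52, 16 and 4 clones had 8, 7, 6, 5 and 4 amino acids. A CDR3 that starts with cysteine and ends with phenylalanine made up 99.6% of clones at 11 amino acids and 95% at 9, but 44.2% at 6. The shortest rows were therefore in part not of the usual form. Just inside the limit, clones of 11 amino acids made up 4.09%, 4.27%, 4.23% and 4.7% of in-frame clones in WT 1, WT 2, Tet2/3 DKO 1 and Tet2/3 DKO 2. Just outside it, clones of 12 amino acids made up 12.3%, 12.3%, 12% and 13.2%.

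**Figure D1:**
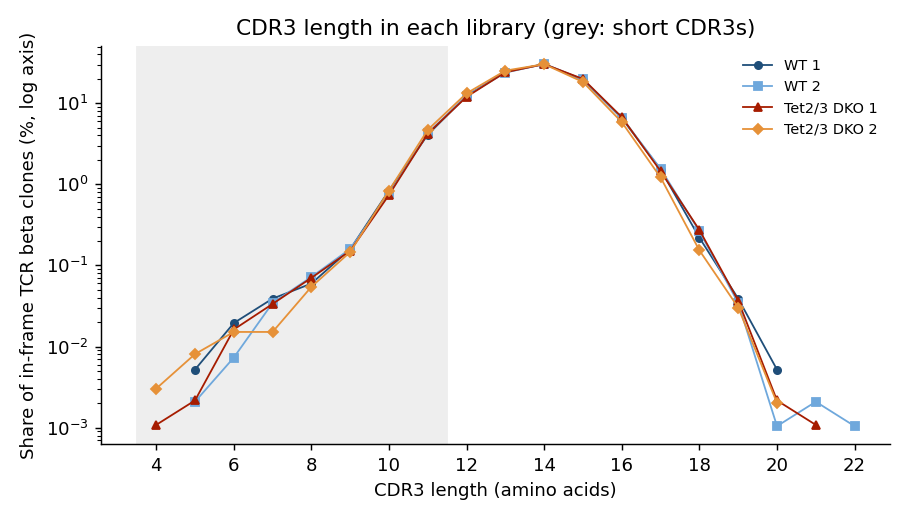
Share of in-frame TCRβ clones (%, log axis) by CDR3 length in amino acids, 1 line for each of the 4 libraries, with short CDR3s on grey. The lines lie close together from 10 to 17 amino acids, where 11 amino acids hold 4.09% to 4.7% of clones.

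The share of reads in short CDR3s was compared between genotypes. Short CDR3s held 5.34% of in-frame TCRβ reads in WT 1 (95% Wilson interval 5.26% to 5.41%), 5.58% in WT 2 (5.51% to 5.65%), 5.37% in Tet2/3 DKO 1 (5.30% to 5.44%) and 6.6% in Tet2/3 DKO 2 (6.54% to 6.67%). Tet2/3 DKO 2 stood above the other libraries, and Tet2/3 DKO 1 lay between both WT libraries. The means were 5.46% ± 0.172 in WT and 5.99% ± 0.873 in DKO (SD, n = 2 each), so that the difference of 0.529 percentage points was smaller than the spread within DKO (exact two-sided permutation test, p = 0.667, where the smallest possible p is 0.333). Reads of PCR libraries without molecular identifiers are not independent molecules, so the intervals cover counting error only. The p-values measure the spread between these libraries only, and with 2 per genotype no permutation p can pass 0.05.

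A single chain held many of the short reads of Tet2/3 DKO 2. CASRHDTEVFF held 4110 reads there, 0.745% of in-frame reads and 11.3% of the short reads, and was the library's chain of rank 3. It was not found in the other 3 libraries. Without the most abundant short chain of each library the short share of Tet2/3 DKO 2 was 5.90%, which was still the highest. When each clone was counted once, the short share was 5.21%, 5.31%, 5.24% and 5.78% in WT 1, WT 2, Tet2/3 DKO 1 and Tet2/3 DKO 2 (exact permutation test, p = 0.667, n = 2 per genotype). Over distinct chains, merged by V, J and CDR3 nucleotide sequence, it was 5.14%, 5.15%, 5.10% and 5.54% (exact permutation test, p = 1, n = 2 per genotype). By both counts Tet2/3 DKO 2 was the highest library and the groups overlapped. Without Tet2/3 DKO 2 the DKO minus WT difference in the share of reads turned from 0.529 to -0.09 percentage points.

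The parts of the CDR3 add up to its length, so they are given as a description with no test. In distinct short chains V brought 12.5 to 12.7 bases on average and J brought 15, against 13.9 and 18.6 to 18.8 in longer chains. The bases between V and J numbered 4.45 to 4.58 in short and 8.93 to 9.13 in longer chains. The largest shortfall was thus between V and J. The J end had lost 5.30 to 5.37 bases in short and 2.61 to 2.69 in longer chains. J was untrimmed in 5.53% to 6.10% of short chains and in 28.5% to 29.9% of longer ones. A D segment was called in 29.6%, 30.7%, 30.8% and 32.6% of short chains in WT 1, WT 2, Tet2/3 DKO 1 and Tet2/3 DKO 2, and in 74.7% to 75.1% of longer chains. V met J directly, with no base between them, in 11.8% to 12.7% of short and 1.61% to 1.81% of longer chains. Where the V and J bases also had to match the usual stretch of their segment exactly, these shares were 5.03% to 5.17% and 0.109% to 0.135%.

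TRBJ use differed between short and longer CDR3s in 10 of 12 segments (83.3%; quasi-likelihood test of edgeR on reads with library as a block, Benjamini-Hochberg adjusted p under 0.05). TRBJ1-1 and TRBJ2-7 took more of the short reads, and the other 8 took less. As every J base counts toward the length, this comparison is in part set by the J stretches given above. TRBJ2-7 held 34.8%, 39.3%, 38.7% and 33.9% of short reads in WT 1, WT 2, Tet2/3 DKO 1 and Tet2/3 DKO 2, and 20.3%, 20.3%, 20.3% and 20.8% of longer reads. No short value fell within the longer range, and the log2 difference was 0.84 (SE 0.175, adjusted p = 6.5e-05). TRBJ1-1 held 12.1%, 12.3%, 12% and 25.3% of short reads, and 7.12%, 6.79%, 8.16% and 7.42% of longer reads. The value of Tet2/3 DKO 2 stood apart, since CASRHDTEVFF made up 44.5% of its short TRBJ1-1 reads, and without that chain the rest made up 14.0% of all short reads. The log2 difference of TRBJ1-1 was 0.98 (SE 0.187, adjusted p = 1.95e-05).

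Among the J segments that fell, TRBJ1-6 and TRBJ2-2, those with the longest stretch together with TRBJ1-4, fell furthest. TRBJ1-6 held 0.702%, 0.867%, 0.998% and 0.505% of short reads and 2.49% to 2.79% of longer reads, a log2 difference of -1.82 (SE 0.191, adjusted p = 2.64e-10). TRBJ2-2 held 3.00%, 2.16%, 1.67% and 1.38% of short reads and 5.92% to 7.05% of longer reads, a log2 difference of -1.74 (SE 0.190, adjusted p = 3.79e-10). Both were lower in every library, and their short and longer ranges did not overlap. TRBJ1-3 followed at -1.32, then TRBJ2-3 at -0.81, TRBJ2-4 at -0.75, TRBJ1-4 at -0.70, TRBJ1-5 at -0.58 and TRBJ2-1 at -0.41, with adjusted p from 1.63e-07 to 0.0362. TRBJ2-1 was higher in the short reads of Tet2/3 DKO 1 (10.5% against 9.99%) and lower in the other 3 libraries. TRBJ1-2 (log2 difference -0.22, adjusted p = 0.25) and TRBJ2-5 (-0.08, adjusted p = 0.667) did not pass the test.

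The size of the J differences depended on the scaling. With TMM scaling 6 segments were called, 2 higher and 4 lower, and with DESeq2 6, of which 3 were higher, TRBJ2-5 among them (0.43, adjusted p = 0.00893), and 3 lower. The median of the 12 log2 differences moved from -0.64 to -0.23 with TMM. TRBJ1-2, TRBJ2-1 and TRBJ2-5 then turned to 0.19, 0.0042 and 0.33, while TRBJ1-1, TRBJ2-7, TRBJ1-6, TRBJ2-2 and TRBJ1-3 kept their direction and their call under both. TRBJ2-1 lost its call without WT 1, WT 2 or Tet2/3 DKO 2 (adjusted p from 0.0779 to 0.21), and TRBJ1-5 lost it without WT 1 (adjusted p = 0.052). At a limit of 10 amino acids TRBJ1-5 (-0.44, adjusted p = 0.0652) and TRBJ2-3 (-0.33, adjusted p = 0.198) lost their calls. TRBJ1-2 was called lower at a limit of 10 (-0.87, adjusted p = 0.00347) and higher at a limit of 12 (0.37, adjusted p = 0.00143), where TRBJ2-5 was called lower (-0.45, adjusted p = 0.00237) and TRBJ1-5 turned to 0.038 (adjusted p = 0.653).

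**Figure D2:**
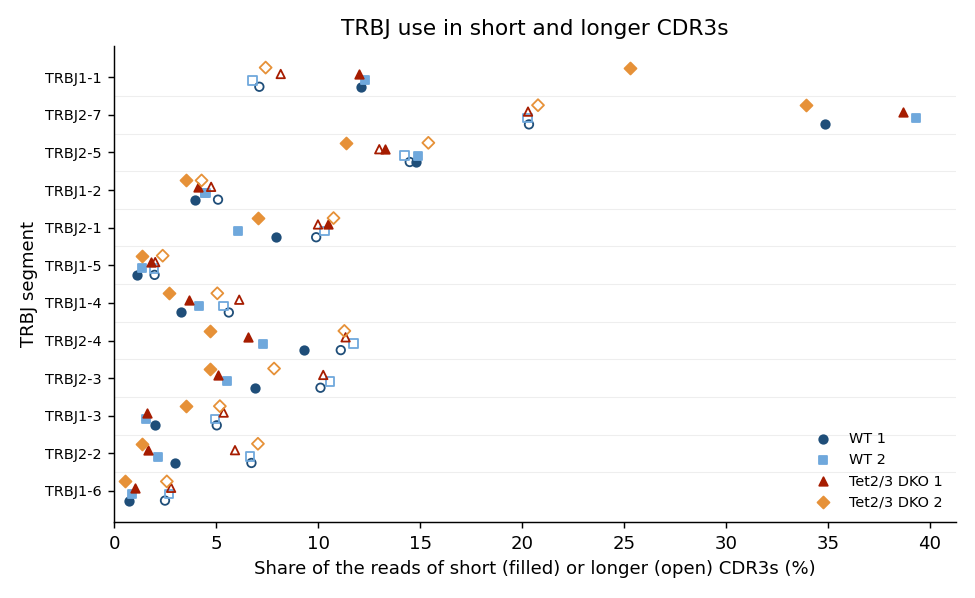
Share of the reads of short (filled) and of longer (open) CDR3s in % for each TRBJ segment, 1 marker shape and colour for each of the 4 libraries, ordered by the log2 difference. TRBJ2-7 holds 33.9% to 39.3% of short and 20.3% to 20.8% of longer reads, and TRBJ1-6 lies below 1% in all 4 short sets.

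TRBV use differed in 9 of 24 segments (37.5%; the same edgeR test), of which 4 rose and 5 fell in short CDR3s. TRBV30 rose most, from 0.445%, 0.352%, 0.329% and 0.424% of longer reads to 1.09%, 1.5%, 1.20% and 1.37% of short reads in WT 1, WT 2, Tet2/3 DKO 1 and Tet2/3 DKO 2 (log2 difference 1.74, SE 0.169, adjusted p = 5.55e-06). TRBV20 rose from 8.32%, 7.52%, 6.80% and 6.82% to 11.8%, 13.9%, 13.0% and 10.5% (0.74, SE 0.146, adjusted p = 0.00286). These were the V segments with a stretch of 14 bases, and for both the ranges of short and longer reads did not overlap. As every V base counts toward the length, V use is also in part set by the V stretches. TRBV15 held 7.63%, 7.13%, 6.06% and 19.0% of short reads, against 4.38%, 4.56%, 4.57% and 7.27% of longer reads (0.81, SE 0.176, adjusted p = 0.00423). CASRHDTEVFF made up 59.3% of the short TRBV15 reads of Tet2/3 DKO 2, and the rest made up 7.73% of all short reads. The log2 difference of TRBV15 was 0.40 without the most abundant short chain of each library (adjusted p = 0.0154, same test). With each distinct chain counted once it was 0.42 (adjusted p = 8.33e-14, same test). TRBV4 rose by 0.53 (SE 0.161, adjusted p = 0.0226) and was higher in the short reads of all 4 libraries. TRBV15 and TRBV4 brought 17 bases each, as many as TRBV5, which fell.

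TRBV5, the V segment that fell most among those with short reads, held 3.69%, 3.82%, 3.59% and 4.41% of short reads and 14.4%, 15.2%, 15.5% and 11.7% of longer reads (log2 difference -1.87, SE 0.164, adjusted p = 3.83e-06). The ranges did not overlap. TRBV13-3 fell by 0.52 on the log2 scale (adjusted p = 0.0134) and TRBV17 by 0.50 (adjusted p = 0.0226), both in all 4 libraries. TRBV2 fell by 0.70 (adjusted p = 0.043) but was higher in the short reads of Tet2/3 DKO 2. TRBV21 had no short read among 100946 and held 185 longer reads (0.0113%) over the 4 libraries together (adjusted p = 0.00639). Reads of the same chain are not independent, so these read counts set no bound on how far TRBV21 fell. TRBV21 lost its call at a limit of 10 (adjusted p = 0.0871) and of 12 amino acids (log2 difference -1.14, adjusted p = 0.224), and DESeq2 gave it no adjusted p. At a limit of 12 TRBV13-3 (-0.22, adjusted p = 0.224) and TRBV17 (-0.31, adjusted p = 0.1) also lost theirs, and at a limit of 10 TRBV15 (-0.01, adjusted p = 0.971) and TRBV17 (0.39, adjusted p = 0.159) turned direction without a call. TRBV31, with the stretch of 13 bases, held 18.6%, 16.7%, 17.4% and 13.2% of short reads and 14.0% to 14.7% of longer reads, and did not pass the test (0.18, SE 0.144, adjusted p = 0.396). When each distinct chain was counted once, TRBV31 rose by 0.27 (adjusted p = 2.07e-12), while with TMM on reads it was at -0.14 (adjusted p = 0.287). Counted once, 15 segments were called, 8 higher and 7 lower. With TMM 9 were called, 2 higher and 7 lower, and TRBV15 (adjusted p = 0.156), TRBV4 (adjusted p = 0.216) and TRBV2 (adjusted p = 0.0634) did not pass. The count was 5 without WT 2 and 5 without Tet2/3 DKO 1. Without WT 2 the calls of TRBV2, TRBV4, TRBV17 and TRBV21 were lost, and without Tet2/3 DKO 1 those of TRBV2, TRBV4, TRBV13-3 and TRBV17.

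**Figure D3:**
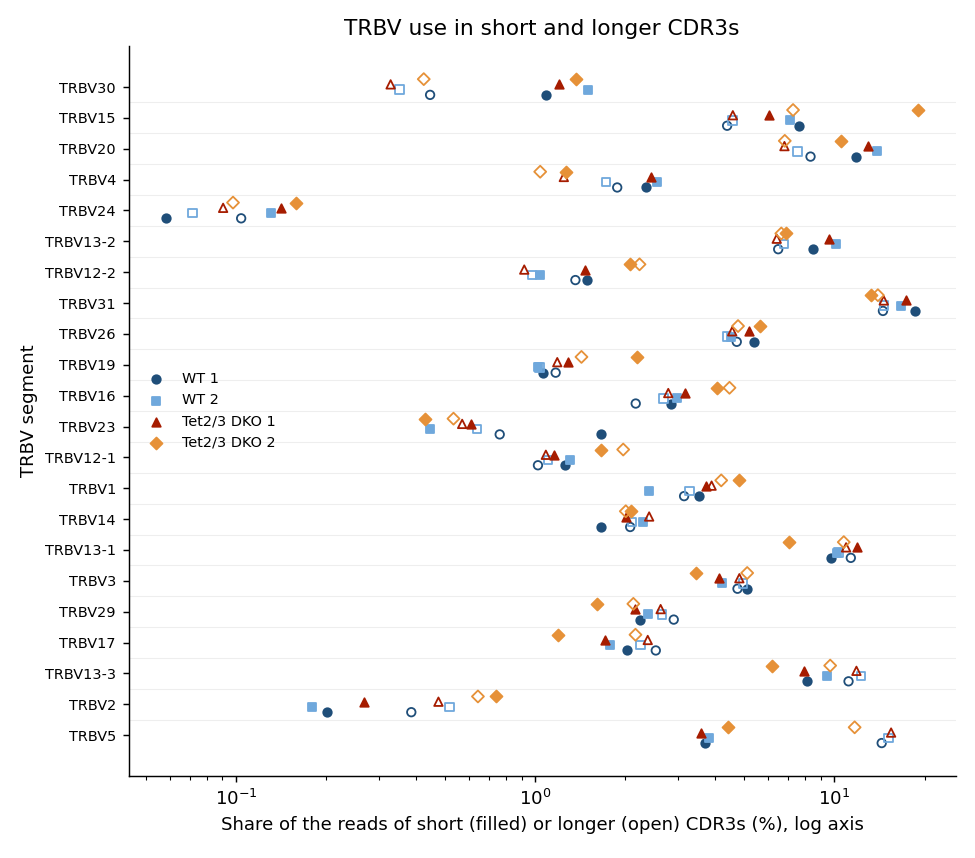
Share of the reads of short (filled) and of longer (open) CDR3s in % (log axis) for each TRBV segment with short reads in all 4 libraries, 1 marker shape and colour for each library, ordered by the log2 difference. TRBV30 lies at the top, with 1.09% to 1.5% of short reads, and TRBV5 at the bottom, with 3.59% to 4.41% of short and 11.7% to 15.5% of longer reads.

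V and J use came together in the pairs. TRBV31 with TRBJ2-7, the V and the J segment with the shortest stretches, was the most frequent pair among distinct short chains, at 5.67%, 5.68%, 6.01% and 4.7% in WT 1, WT 2, Tet2/3 DKO 1 and Tet2/3 DKO 2, against 2.15% to 2.39% of longer chains. TRBV20 with TRBJ2-7 followed at 3.88%, 4.35%, 4.68% and 4.52%, against 1.05% to 1.11%. Each of the 7 most frequent pairs held TRBJ2-7. By contrast, TRBV5 with TRBJ2-7 held 1.49% to 1.88% of short and 2.72% to 3.03% of longer chains. These pair shares are a description and were not tested.

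The residues in the centre of the loop were compared after leaving out the first 3 and the last 3 amino acids. The share of 13 of 20 residues differed (65%; the same edgeR test on residue counts), 7 higher and 6 lower in short CDR3s. A short CDR3 keeps fewer central residues after this cut, so this comparison is in part set by the length limit itself. Glutamate made up 14.9%, 15%, 15.8% and 16.1% of central residues of short CDR3s and 8.60%, 8.60%, 8.69% and 8.23% of longer ones (log2 difference 0.85, SE 0.0618, adjusted p = 2.26e-04). The ranges did not overlap. Glutamate is encoded in the CDR3 part of TRBJ2-7, as EQYF, and of TRBJ1-1, as EVFF, the J segments that rose, but also in that of TRBJ1-4, TRBJ2-1 and TRBJ2-3, which fell. Arginine rose by 0.34 (adjusted p = 0.00863) and tyrosine by 0.33 (adjusted p = 0.0297). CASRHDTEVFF holds a central arginine, and arginine made up 9.46% in short CDR3s of Tet2/3 DKO 2 against 7.11% to 7.59% in those of the other libraries. Without the most abundant short chain of each library arginine rose by 0.28 (adjusted p = 0.00137, same test). Tyrosine differed little in Tet2/3 DKO 2, at 3.43% in short and 3.34% in longer CDR3s. Cysteine rose by 1.86 (adjusted p = 0.00261), but from few chains, with 2, 7, 8 and 6 short chains in WT 1, WT 2, Tet2/3 DKO 1 and Tet2/3 DKO 2 that held one in the centre. Aspartate, phenylalanine and lysine were the other residues that rose, by 0.28 to 0.70. Lysine was lower in the short CDR3s of Tet2/3 DKO 2 (0.715% against 0.734%) and higher in the other 3 libraries.

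Tryptophan, which TRBD2 encodes in a single reading frame, fell furthest, from 1.61% to 1.94% of central residues in longer to 0.645%, 0.816%, 0.619% and 0.665% in short CDR3s (log2 difference -1.35, SE 0.0985, adjusted p = 2.26e-04). Asparagine fell by 0.74, proline by 0.64, glutamine by 0.54, glycine by 0.48 and alanine by 0.46 on the log2 scale (adjusted p from 0.00126 to 0.00632). Glycine, which D segments encode in several frames, still made up 12.4%, 13.7%, 12.8% and 12.2% of central residues in short CDR3s, against 17.6% to 18.1% in longer ones. Histidine did not pass the test (0.84, SE 0.428, adjusted p = 0.128), and its share of 2.92% in Tet2/3 DKO 2 against 0.573% to 0.759% in the other libraries went with the histidine of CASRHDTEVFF. With TMM 10 residues were called, 2 higher and 8 lower. Only cysteine and glutamate kept a call for a rise under TMM, and arginine and tyrosine lost theirs (adjusted p = 0.1 for both). Without WT 2 the count was 8, and arginine (adjusted p = 0.0506) and tyrosine (adjusted p = 0.113) lost their calls. At a limit of 10 amino acids arginine was at 0.034 (adjusted p = 0.641) and tyrosine at 0.28 (adjusted p = 0.123), both without a call, proline turned to 0.014 (adjusted p = 0.931), and 6 residues were called. Tyrosine also lost its call without WT 1 (adjusted p = 0.0953) and without Tet2/3 DKO 1 (adjusted p = 0.113).

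The joints of short chains were then compared by genotype. Among distinct short chains with a called D, no base lay between V and D or between D and J in 31.1% of 1022 chains in WT 1 (95% Wilson interval 28.4% to 34%), 31.1% of 1299 in WT 2 (28.6% to 33.7%), 35.9% of 1249 in Tet2/3 DKO 1 (33.3% to 38.6%) and 37.4% of 1513 in Tet2/3 DKO 2 (35.0% to 39.9%). Both DKO libraries lay above both WT libraries, but the intervals of both WT libraries overlapped that of Tet2/3 DKO 1. The means were 31.1% ± 0.0103 and 36.6% ± 1.09 (SD, n = 2 each), and they lay 5.53 percentage points apart. The exact permutation test gave p = 0.333, the smallest that 2 against 2 can give, and an adjusted p of 0.8 over 6 planned comparisons. The WT SD came from 2 nearly equal values and was far below the counting error shown by the intervals. The difference stayed between 4.76 and 6.30 when each library was left out. It was 5.55 where bases past the end of V or J counted as inserted and 5.45 where V and J bases had to match exactly, both readings chosen after the data were seen. With short set at 12 or fewer amino acids it was 2.0, from 27.3%, 27.3%, 27.2% and 31.5%, and the groups overlapped (exact permutation test, p = 1, n = 2 each). In longer chains the shares were 18%, 17.7%, 18.4% and 20.2%, a difference of 1.44 percentage points. The excess of short over longer chains was 13.1, 13.4, 17.5 and 17.2 percentage points in WT 1, WT 2, Tet2/3 DKO 1 and Tet2/3 DKO 2 (exact permutation test of the genotype difference, p = 0.333, n = 2 each).

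The order of the genotypes was the same in chains of both J clusters. In short chains with a D and a TRBJ1 segment (214, 292, 302 and 364 chains) the share without an inserted base was 30.4%, 31.8%, 39.7% and 40.9%. With a TRBJ2 segment (808, 1007, 947 and 1149 chains) it was 31.3%, 30.9%, 34.6% and 36.3%. Within each cluster the DKO libraries lay above the WT libraries, which was not tested by cluster. At 11 amino acids it was 31.3%, 31.0%, 36.1% and 37.5%, while just outside the limit, at 12 amino acids, it was 26.4%, 26.4%, 25.0% and 29.9%, where Tet2/3 DKO 1 was the lowest. At 13, 14, 15 and 16 amino acids the DKO libraries again lay above the WT libraries, so this order was not limited to short chains. At 14 it was 18.1%, 17.7%, 18.5% and 19.4%. The number of inserted bases per short chain with a D was 1.60, 1.57, 1.52 and 1.38. Weighted by reads, the share without an inserted base was 35.2%, 36.2%, 38.0% and 48.0%. Large chains weigh on the value of Tet2/3 DKO 2, among them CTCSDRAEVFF, with 533 reads, TRBD1 and no unassigned base.

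**Figure D4:**
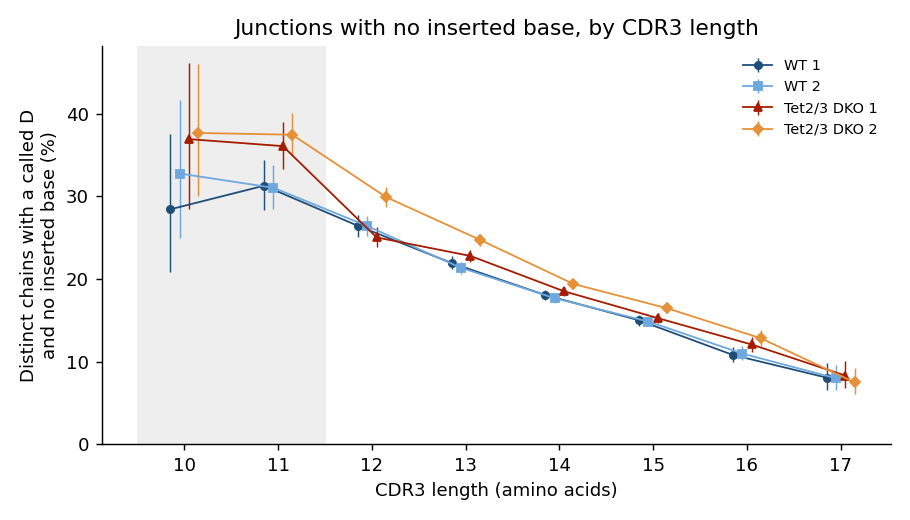
Share of distinct chains with a called D in which no base was inserted (%), by CDR3 length in amino acids, 1 line for each of the 4 libraries with 95% Wilson intervals that cover counting error only, and short CDR3s on grey. At 11 amino acids the DKO libraries lie at 36.1% and 37.5% and the WT libraries at 31.3% and 31.0%, while at 12 the order of the libraries is mixed.

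The D segments named also differed between short and longer chains. TRBD1 (chr6:41533201-41533212) lies upstream of both J clusters, and TRBD2 (chr6:41542163-41542176), which spans more bases, lies between them. As every D base counts toward the length, D use is also in part set by the length limit. Where a D was called in a short chain, TRBD1 alone was named in 49.6%, 50.3%, 56.0% and 56.4% of chains in WT 1, WT 2, Tet2/3 DKO 1 and Tet2/3 DKO 2, and TRBD2 alone in 25.9%, 25.4%, 20.4% and 22.9%. In longer chains TRBD1 alone was named in 41.6%, 41.5%, 43.4% and 45.0%, and TRBD2 alone in 40.2%, 40.4%, 38.4% and 38.0%. Short and longer chains with a D thus both named TRBD1 more often than TRBD2 in all 4 libraries, with a wider gap in short chains. The DKO libraries lay above the WT libraries for TRBD1 in short chains, by 6.27 percentage points (exact permutation test, p = 0.333, n = 2 each). The excess of TRBD1 in short over longer chains was 7.98, 8.73, 12.6 and 11.4 percentage points. In the remaining chains both D segments were listed. The joint values other than the share without an inserted base in short chains were chosen after the values were seen, and of these 26 comparisons, the adjusted p was 0.51 or higher in each.

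Segment use in short CDR3s was tested between genotypes in a fit over short and longer rows together. Of 46 TRBV rows, 22 of them short, 0 were called (0%; edgeR, 2 at an unadjusted p under 0.05, 1 of them short, and 0 calls by DESeq2). Of 24 TRBJ rows, 12 of them short, 0 were called (0%; edgeR, 2 at an unadjusted p under 0.05, both short, and 0 by DESeq2). The short TRBV row with the lowest p was TRBV2, with 38, 44, 57 and 270 reads in WT 1, WT 2, Tet2/3 DKO 1 and Tet2/3 DKO 2 (log2 difference DKO over WT 1.62, SE 0.618, adjusted p = 0.634). Tet2/3 DKO 2 stood apart there, and 178 of its 270 reads belonged to a single chain, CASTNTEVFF. The short TRBJ row with the lowest p was TRBJ2-2, at 0.160%, 0.120%, 0.0898% and 0.0909% of in-frame reads (log2 difference -0.63, SE 0.172, adjusted p = 0.413). The DKO libraries lay below the WT libraries, with values close to each other.

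These 0 counts changed when a DKO library was left out, and the lone DKO library was then assumed to vary as the WT libraries did. Without Tet2/3 DKO 1 the fits called 9 TRBV rows, 6 of them short, and 4 TRBJ rows, all short. In those fits TRBV2 was at 2.23 (adjusted p = 4.17e-06) and TRBJ2-2 at -0.62 (adjusted p = 0.0317). Without Tet2/3 DKO 2 the fits called 0 TRBV rows and 2 TRBJ rows, both short, with TRBJ2-2 at -0.64 (adjusted p = 0.0458) and TRBV2 at 0.47 (adjusted p = 0.993). TRBJ2-2 was at -0.41 without WT 1 (adjusted p = 0.605), -0.83 without WT 2 (adjusted p = 0.0521), -0.28 at a limit of 10 (adjusted p = 0.909) and 0.02 at a limit of 12 amino acids (adjusted p = 0.947). Whether the short against longer difference itself differed between genotypes was tested as an interaction. It was called for 0 of 24 TRBV (0%; 1 at an unadjusted p under 0.05) and 0 of 12 TRBJ segments (0%; 0 at an unadjusted p under 0.05), with 0 calls by DESeq2 in both. Without Tet2/3 DKO 1 it was called for 3 TRBJ segments.

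Sharing of chains between libraries was counted over V, J and CDR3 amino acid sequence. Of the short chains, 33.2% in WT 1, 31.4% in WT 2, 32.3% in Tet2/3 DKO 1 and 30.3% in Tet2/3 DKO 2 were found in at least 1 other library. Of the longer chains, 26.6%, 24.8%, 25.3% and 24.9% were. Short chains were shared more often in every library, by 6.61, 6.62, 6.91 and 5.31 percentage points (mean 6.36 ± 0.716, SD, n = 4; exact sign-flip permutation test, p = 0.13, the smallest that 4 libraries can give). The order turned at a lower limit. With short set at 10 or fewer amino acids, the mean difference was -2.81 percentage points, and it was below 0 in all 4 libraries. By single length, 35.6%, 33.8%, 34.5% and 32.2% of chains of 11 amino acids were shared in WT 1, WT 2, Tet2/3 DKO 1 and Tet2/3 DKO 2, but 29.7%, 27.9%, 29.7% and 26.2% of those of 10 and 14.0%, 11.2%, 13.7% and 9.91% of those of 9. Just outside the limit, 34.6%, 32.4%, 33.3% and 31.6% of chains of 12 amino acids were shared. Sharing thus stood highest at 11 amino acids in every library and fell toward both ends.

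**Figure D5:**
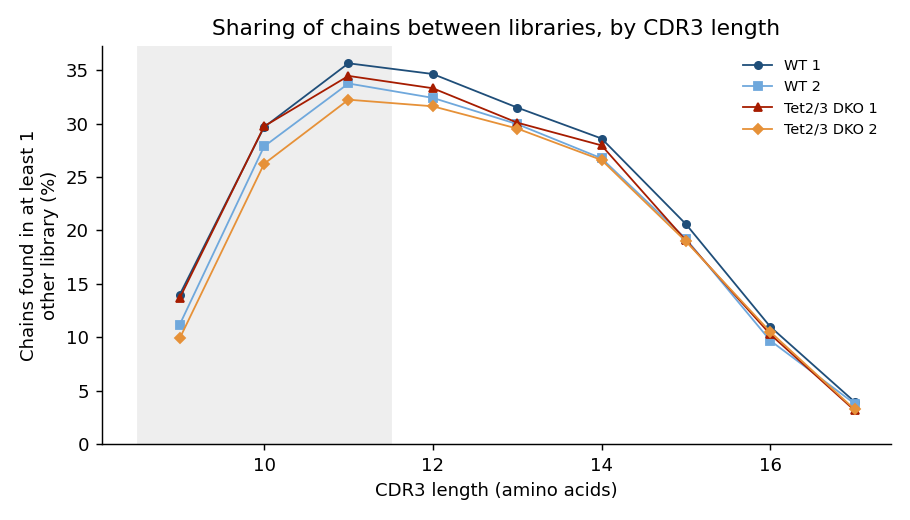
Share of distinct chains of a library found in at least 1 of the other 3 (%), by CDR3 length in amino acids, 1 line for each of the 4 libraries, with short CDR3s on grey. Each line peaks at 11 amino acids, at 32.2% to 35.6%, and falls to 9.91% to 14.0% at 9.

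The genotypes did not stand apart in sharing (means 32.3% ± 1.24 in WT and 31.3% ± 1.41 in DKO, SD, n = 2 each; exact permutation test, p = 0.667), and the libraries differ in depth. The difference of -1.06 percentage points was -2.75 without Tet2/3 DKO 1, -2.29 without WT 2, -0.655 without Tet2/3 DKO 2 and -0.105 without WT 1. Pairs within and across genotypes shared similar numbers of short chains. WT 1 and WT 2 shared 590 short chains (18.9% and 15.6% of each), both DKO libraries shared 700 (19.4% and 17%), and the 4 mixed pairs shared 563 to 708. Short chains in which every base was assigned to a segment were shared more often at the nucleotide level, at 33.1%, 30.9%, 29.2% and 25.7% in WT 1, WT 2, Tet2/3 DKO 1 and Tet2/3 DKO 2. Those with unassigned bases were shared at 14.1%, 14.2%, 14.3% and 13.4%. The ranges did not overlap, and this comparison was not tested. Longer chains showed the same order, at 22.3% to 25.4% against 7.41% to 7.92%.

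In all 4 libraries, 227 of 11870 distinct short chains were found, against 2460 of 229757 longer chains. TRBJ2-7 was used by 107 of the 227 (47.1%) and TRBJ2-5 by 51 (22.5%), against 36.3% and 11.7% of all distinct short chains. TRBV13-2 and TRBV31 were used by 37 each (16.3%), against 8.34% and 14.0%. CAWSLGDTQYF had the highest lowest share, with 34, 33, 50 and 126 reads in WT 1, WT 2, Tet2/3 DKO 1 and Tet2/3 DKO 2, and it was made by 9 nucleotide sequences. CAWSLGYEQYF, also with TRBV31, had 24, 42, 65 and 203 reads from 15 nucleotide sequences. Both were highest in Tet2/3 DKO 2, also as a share of in-frame reads, at 0.0228% against 0.00753% to 0.0126% for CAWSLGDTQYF and 0.0368% against 0.00681% to 0.0164% for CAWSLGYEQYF.

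Next by this rule, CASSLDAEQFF (TRBV3 and TRBJ2-1) had 26, 27, 50 and 47 reads, and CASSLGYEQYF (TRBV15 and TRBJ2-7) had 26, 46, 24 and 46. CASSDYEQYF had 26, 39, 29 and 32 reads and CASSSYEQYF (TRBV4 and TRBJ2-7) had 25, 20, 37 and 38. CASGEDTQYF (TRBV13-2 and TRBJ2-5) had 66, 19, 31 and 48, and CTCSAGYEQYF (TRBV1 and TRBJ2-7) had 21, 18, 33 and 71. All of these 8 chains but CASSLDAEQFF used TRBJ2-7 or TRBJ2-5. The shortest chains in all 4 libraries had 9 amino acids, and there were 3, each with TRBV13-2. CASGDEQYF had 7, 31, 22 and 55 reads, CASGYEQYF had 14, 19, 17 and 6, and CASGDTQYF had 10, 8, 4 and 1. In the most abundant sequence of each every base was assigned to a segment, but those of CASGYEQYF and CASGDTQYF did not match the usual V and J stretches exactly.

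Between genotypes, 0 of 20292 chains of all lengths were called, 0 of 1354 among the short ones (0%; edgeR, 461 and 31 at an unadjusted p under 0.05, and 0 calls by DESeq2).

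Clone size was compared last. Short chains held 5.44, 5.78, 5.23 and 7.85 reads on average in WT 1, WT 2, Tet2/3 DKO 1 and Tet2/3 DKO 2, and longer chains 5.23, 5.31, 4.95 and 6.51. The median was 4 reads for both classes in WT 1, WT 2 and Tet2/3 DKO 1, and 5 against 4 in Tet2/3 DKO 2. The log2 ratio of the means, short over longer, was 0.06, 0.12, 0.08 and 0.27, above 0 in 4 of 4 libraries (mean 0.13 ± 0.0964, SD; exact sign-flip permutation test, p = 0.13). Without the most abundant short chain of each library the ratio in Tet2/3 DKO 2 was 0.10, close to WT 2, and the mean ratio was 0.0785. With all chains but without Tet2/3 DKO 2 the mean ratio was 0.0863. Chains of a single read made up 13.3%, 12.3%, 12.9% and 11.8% of short and 15.3%, 14.0%, 14.6% and 14.0% of longer chains. The ratio did not differ between genotypes beyond the spread (exact permutation test, p = 0.667, n = 2 each). The most abundant short chain had 274 reads in WT 1 (rank 19 of the library), 288 in WT 2 (rank 12), 99 in Tet2/3 DKO 1 (rank 43) and 4110 in Tet2/3 DKO 2 (rank 3). The most abundant longer chains had 2852, 1097, 1125 and 9642 reads. In no library was the most abundant chain a short one.

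The other leading short chains were mostly found in a single library. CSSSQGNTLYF (TRBV23 and TRBJ2-4) had 222 reads in WT 1 alone, and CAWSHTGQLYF (TRBV31 and TRBJ2-2) had 128 there and 5 in Tet2/3 DKO 2. In WT 2, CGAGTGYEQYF (TRBV20 and TRBJ2-7) had 208 reads, with 3 and 15 in Tet2/3 DKO 1 and Tet2/3 DKO 2, and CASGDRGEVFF (TRBV13-2 and TRBJ1-1) had 175 in that library alone. In Tet2/3 DKO 1, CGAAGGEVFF (TRBV20 and TRBJ1-1) had 86 reads and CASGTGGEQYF (TRBV13-2 and TRBJ2-7) had 75, both in that library alone. In Tet2/3 DKO 2, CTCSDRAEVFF (TRBV1 and TRBJ1-1) had 533 reads in that library alone, and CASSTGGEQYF (TRBV19 and TRBJ2-7) had 484, with 7 in WT 1.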

How the data were processed

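TCR libraries of splenic CD4 T cells from 2 WT and 2 Tet2/3 DKO mice were analysed, and TCRα tables were not used here. Per the labels and the methods, the authors made 5' RACE libraries from 20 ng of RNA, sequenced them on a MiSeq, used bcl2fastq 2.20.0 and fastp 0.21.0 and assembled clones with MiXCR on mm10. The deposited counts are whole reads per clone without molecular identifiers, and the deposited fraction of reads was not used further. PCR and sequencing errors can add clones of few reads.

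In-frame clones had a CDR3 without a stop or a frameshift. This left out 2.37% to 2.68% of reads as out of frame or with a stop, 0.735% to 1.00% as not covered and 4 clones of WT 1 with an empty CDR3. Distinct chains merged clones with the same V, J and CDR3 nucleotide sequence, and sharing used V, J and CDR3 amino acids. The first listed V and J without the allele were taken. Bases of V, D and J were read from the reference points of the clone tables, which can take mismatched bases or bases past a segment's end into it and so lower the number of inserted bases, and a D is called only where enough of its bases remain, so that the D values cover a part of the chains.

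Segment, residue and chain counts were tested by quasi-likelihood in edgeR 4.0.16 (features with at least 10 reads in total, column totals as library size, Benjamini-Hochberg adjustment, threshold 0.05), with DESeq2 1.42.0 as an alternative. Chains had to be in at least 2 libraries. Single values were compared by exact permutation tests. The edgeR fits were tried on simulated counts, and the permutation tests on small sets of values with known answers. The members and lists were chosen with earlier results of these data known. Named were up to 4 TRBV and 4 residues each way among those called and changed alike in all libraries, all 12 TRBJ, the 3 short chains with most reads in each library, the 8 with the highest lowest share, the shortest in all 4, and the lowest-p short row of each genotype fit. Other names were chosen after their values were seen. Segment coordinates came from RefSeq (GRCm38.p6). Python used pandas 2.3.3 and scipy 1.17.1.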

Additional observations from a re-analysis of the deposited data

How the results depend on the processing

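The short shares and the reads per chain turned direction between genotypes at a limit of 10, but not of 12, amino acids. At a limit of 12 the DKO minus WT difference of the short share was 1.16 percentage points of reads, 0.54 of clones and 0.55 of chains. At the main limit the difference for reads was 0.234 without the most abundant short chain of each library and 0.299 without the 10 most abundant clones. At a limit of 10 amino acids the DKO minus WT difference of the short share was -0.0604 percentage points of reads, -0.0297 of clones and -0.0439 of chains, the log2 ratio of reads per chain differed by -0.0156. At this limit short minus longer sharing, averaged over the libraries, was -2.81 percentage points. Leaving out each library in turn gave -0.0883 to 1.15 percentage points for the share of reads, -0.0182 to 0.525 for clones, -0.0456 to 0.391 for chains and -0.0110 to 0.181 for the log2 ratio of reads per chain between genotypes, with the negative end without Tet2/3 DKO 2. It gave 4.76 to 6.30 for the share without an inserted base, -2.75 to -0.105 for sharing between genotypes, 5 to 11 TRBV calls, 8 to 10 TRBJ calls and 8 to 14 residue calls. For genotype it gave 0 to 9 TRBV, 0 to 4 TRBJ and 0 chain calls, and for the interaction 0 TRBV and 0 to 3 TRBJ calls.

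Besides the fits without a library, counts that moved by over 1.5 times were 15 TRBV calls with each distinct chain counted once, 6 TRBJ calls with TMM and 6 with DESeq2, and 6 residue calls at a limit of 10. TMM moved the median TRBV log2 difference from 0.10 to -0.22. Among the segments and residues named by rule, those that reversed were TRBV15 (-0.0101), TRBV17 (0.39) and proline (0.014) at a limit of 10, TRBJ1-2 (0.37), TRBJ1-5 (0.038) and, between genotypes, TRBJ2-2 (0.0200) at a limit of 12, TRBJ1-2 (0.19), TRBJ2-1 (0.0042) and TRBJ2-5 (0.33) with TMM, and TRBJ1-2 (0.29), TRBJ2-1 (0.098) and TRBJ2-5 (0.43) with DESeq2. Leaving out each library put TRBJ2-5 at -0.124 to 0.0436, above 0 without Tet2/3 DKO 2. The cause was not tested. The replicate numbers are shared by both genotypes without a stated pairing, and same-numbered libraries deviated with r = -0.117 over 64 segment rows. With the replicate block 0 TRBV, 0 TRBJ and 0 chains were called, as without it.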
